A study of Homo sapiens with 9 samples.

Results

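The MTRNR2L genes are nuclear copies of MT-RNR2, the mitochondrial gene for the 16S ribosomal RNA, and each carries a short reading frame like that of humanin. Humanin is a small peptide encoded inside the 16S rRNA gene. It is known for keeping cells alive under stress, by binding members of the BCL2 family such as BAX inside the cell and by acting on receptors at the cell surface. The nuclear copies are named humanin-like after that frame, and stretches of their transcripts match other copies or the mitochondrial rRNA, so that a short read can fit more than 1 gene.

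Members were all rows whose gene symbol begins with MTRNR2L, which gave MTRNR2L1 to MTRNR2L10, 10 genes of 18143 in the count and FPKM tables. They were selected on measured values in part, because MTRNR2L2 was the gene of highest FPKM in SiREV1#1 replicate 1. The MTRNR2L values in that library, and every comparison that contains it, are therefore given as a description with no test. The study silenced REV1, a translesion DNA polymerase and scaffold for other such polymerases, in A549 cells, an established human lung adenocarcinoma line. Cells received scramble siRNA, SiREV1#1 or SiREV1#2 and were harvested after 48 h, in 3 replicates for each siRNA, which gave 9 libraries. All groups had the same parental line and medium, so that the siRNA was the labelled difference, and transient silencing leaves some REV1 transcript in place. mRNA was taken with oligo(dT) beads and primed with random hexamers before sequencing.

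The deposited total counts ran from 13059082 in SiREV1#1 replicate 1 to 20166451 in SiREV1#2 replicate 2. The count column of SiREV1#2 replicate 3 repeated that of replicate 2 in 100% of genes, so 8 libraries entered the count tests while its own FPKM values were kept. REV1 was lower after both siRNAs, at 7.23, 7.90 and 8.44 FPKM in the scramble libraries, 2.60, 2.92 and 3.36 after SiREV1#1 and 3.62, 3.36 and 3.18 after SiREV1#2. Every siRNA library lay below every scramble library, while the 2 siRNA groups overlapped. Over all replicates its edgeR log2 fold changes were -1.26 and -1.33, with adjusted p of 0.042 and 0.154, and the latter became 0.0099 with the replicate number as a block. Of 6 epithelial markers, KRT7, KRT8 and KRT18 were abundant, with summed marker FPKM between 5680 and 11609, whereas KRT19 and EPCAM stayed at or below 2.38 FPKM. Markers of blood, endothelial and fibroblast cells summed to 0.32 to 0.75 FPKM in replicates 2 and 3 and to 5.16 to 6.56 in the replicate 1 libraries, where CD14 made up most of the sum, while CDH5, COL1A2 and DCN had a median of 0 over the libraries. Replicate 1 stood apart from replicates 2 and 3 in each group, and the comparisons between siRNAs are given with and without it. In bulk RNA, fewer cells of a type and less RNA per cell cannot be told apart.

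The humanin-like frames are shown first because they define the family and carry bases that differ between the members shown and the mitochondrial gene. MTRNR2L6 is not shown, although it exceeded MTRNR2L10 in 9 of 9 libraries. All frames are from GENCODE 29 transcripts on GRCh38, read on the strand of the gene, from the start codon to the stop codon. MT-RNR2 is a ribosomal RNA gene on the mitochondrial genome, where the frame lies at chrM:2633-2707 on the plus strand. MTRNR2L2 (chr5:80650000-80650086, minus strand) is annotated as a processed pseudogene, MTRNR2L8 (chr11:10508152-10508226, minus strand) and MTRNR2L1 (chr17:22524062-22524136, plus strand) as coding frames inside single-exon genes, MTRNR2L9 (chr6:61574328-61574402, plus strand) as a processed pseudogene, and MTRNR2L10 (chrX:55181920-55181994, minus strand) as a coding frame inside a single-exon gene. Capitals mark bases that differ from MT-RNR2 at the same position, counted from 1 at the first base of the start codon, with no gaps allowed.
MT-RNR2: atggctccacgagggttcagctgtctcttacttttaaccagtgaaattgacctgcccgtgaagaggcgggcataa
MTRNR2L2: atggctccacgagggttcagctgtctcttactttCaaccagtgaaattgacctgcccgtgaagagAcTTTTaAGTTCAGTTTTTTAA
MTRNR2L8: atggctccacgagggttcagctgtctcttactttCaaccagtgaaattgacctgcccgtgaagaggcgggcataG
MTRNR2L1: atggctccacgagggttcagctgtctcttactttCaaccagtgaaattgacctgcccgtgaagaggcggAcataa
MTRNR2L9: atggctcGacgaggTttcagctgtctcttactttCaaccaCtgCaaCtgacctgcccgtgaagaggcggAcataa
MTRNR2L10: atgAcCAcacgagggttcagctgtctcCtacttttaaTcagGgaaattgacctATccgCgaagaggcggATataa

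All frames were read with TAA, TAG and TGA as the stop codons, as in the code of nuclear genes. Read in this way, the mitochondrial frame had 75 bases and 24 codons before the stop. MTRNR2L8 differed from it at 2 positions, T35C and A75G, and MTRNR2L1 at 2 positions, T35C and G70A. MTRNR2L2 matched both of these over its first 65 bases and then left the mitochondrial frame, running on to 87 bases and 28 codons. T35C was present in 8 of the 10 members, all but MTRNR2L7 and MTRNR2L10. The frame of MTRNR2L9 had 7 differences, that of MTRNR2L10 had 11, and that of MTRNR2L7, 1 of the 2 members with a median below 1 FPKM, had 12.

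Over whole transcripts, MTRNR2L8 was closest to MT-RNR2, with 93.2% identity over 1301 aligned bases and a longest shared run of 88 bases. MTRNR2L1 had 89.7% identity over 1538 bases with a longest shared run of 60 bases. The other copies with more than the frame in the annotation were less alike, from 86.8% for MTRNR2L6 to 81.7% for MTRNR2L5, of which 727 bases of a transcript of 739 were aligned. Of all runs of 50 bases in a member's transcript, 8.93% in MTRNR2L8, 0.878% in MTRNR2L10, 0.731% in MTRNR2L1 and 0.429% in MTRNR2L6 also occurred in MT-RNR2, and none did in the other 6 members. For MTRNR2L8, 252 of 1254 such runs also occurred in annotated genes other than MT-RNR2 and the members, more than the 112 found in MT-RNR2. Over all members, MTRNR2L12 held 235 of the runs that such genes shared, the most of any gene, and MTRNR2L13 held 1. At least 1 such run was shared with another MTRNR2L gene of the table in 8 of the 10 members, with 23 of 1504 runs of MTRNR2L1 and 33 of 1254 runs of MTRNR2L8 among them. How the authors' counting treated reads that match several copies is not given in the sources used here, so the division of counts between members, and between members and MT-RNR2, is uncertain. For MTRNR2L2 and MTRNR2L9 the annotation used here holds only the frame, of 87 and 75 bases. The deposited counts and FPKM together imply lengths of 1018 and 500 bases, so that most of the sequence counted for these 2 genes was not analysed here. MTRNR2L5 also had a longer implied length, 1741 bases, than its transcript of 739 bases. MTRNR2L4 and MTRNR2L10 had shorter ones, 1217 and 1105 bases, than their transcripts of 1762 and 1530 bases. MT-RNR2 and 3 further MTRNR2L genes of the annotation, MTRNR2L12 among them, had no row of their own, so their expression could not be read here. How far reads from them were counted for the members was not tested.

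The family was among the most abundant RNA in every library, although its members differed widely in level. MTRNR2L2, the most abundant member in each library, had 13346, 5979 and 5775 FPKM in scramble replicates 1, 2 and 3. It had 39698, 7330 and 7875 FPKM after SiREV1#1, and 14786, 5423 and 5605 FPKM after SiREV1#2. It ranked first of all genes in SiREV1#1 replicate 1 and second in the other 8 libraries, each time behind FTL, the light chain of the iron store ferritin. In SiREV1#1 replicate 1 the next genes were FTL with 26130 FPKM and MTRNR2L8 with 20320 FPKM. The replicate 1 library was the highest of its group in all 3 groups, and replicates 2 and 3 lay close together.

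MTRNR2L8 followed with a median of 4573 FPKM over the 9 libraries, MTRNR2L9 with 2601, MTRNR2L1 with 1170, MTRNR2L6 with 291 and MTRNR2L10 with 134. MTRNR2L3 had a median of 58.8 FPKM and MTRNR2L4 of 4.80, while MTRNR2L5 and MTRNR2L7 had 0.25 and 0.13. Within libraries this order was strict for 7 of the 9 neighbouring pairs, in 9 of 9 libraries each. MTRNR2L9 exceeded MTRNR2L1 in 8 of 9 libraries, with SiREV1#1 replicate 1 as the exception, and MTRNR2L5 exceeded MTRNR2L7 in 5 of 9, so that the latter pair could not be ordered. These are levels per length on the authors' scale, and they depend on the gene lengths that the authors used.

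**Figure D1:**
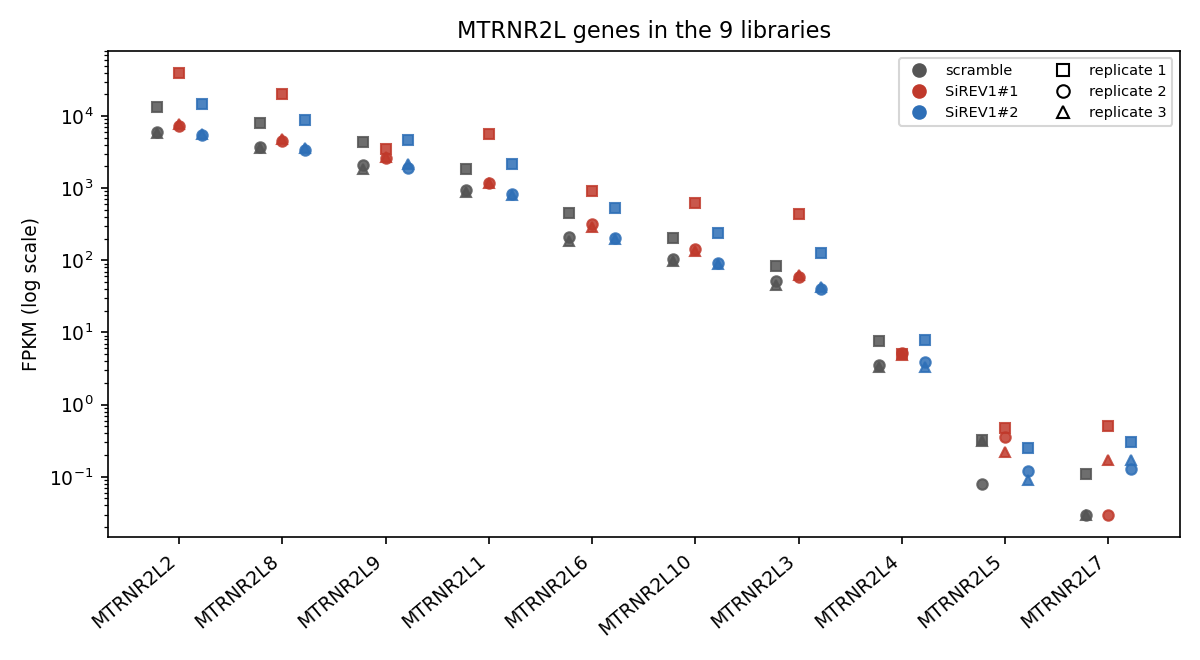
FPKM of the 10 MTRNR2L genes (log axis) in the 9 libraries, ordered by median, with color for the siRNA and symbol for the replicate, each point 1 library. The squares of replicate 1 lie highest for most members, and the red square of SiREV1#1 replicate 1 reaches 39698 FPKM for MTRNR2L2 but lies near the other SiREV1#1 points for MTRNR2L9 and MTRNR2L4.

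Together the 10 genes took 2.99, 1.38 and 1.31% of all counts in scramble replicates 1, 2 and 3. After SiREV1#1 they took 7.95, 1.71 and 1.79%, and after SiREV1#2 they took 3.33 and 1.26% in replicates 1 and 2. SiREV1#1 replicate 1 was also the library with the lowest total count. As a share of summed FPKM the family reached 12.95% there, against 2.51 to 5.78% elsewhere. Relative to FTL in the same library, MTRNR2L2 was at 0.637, 0.590 and 0.594 in the scramble group, at 1.52, 0.553 and 0.612 after SiREV1#1, and at 0.537, 0.543 and 0.544 after SiREV1#2. The ratio was above 1 in SiREV1#1 replicate 1 alone.

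**Figure D2:**
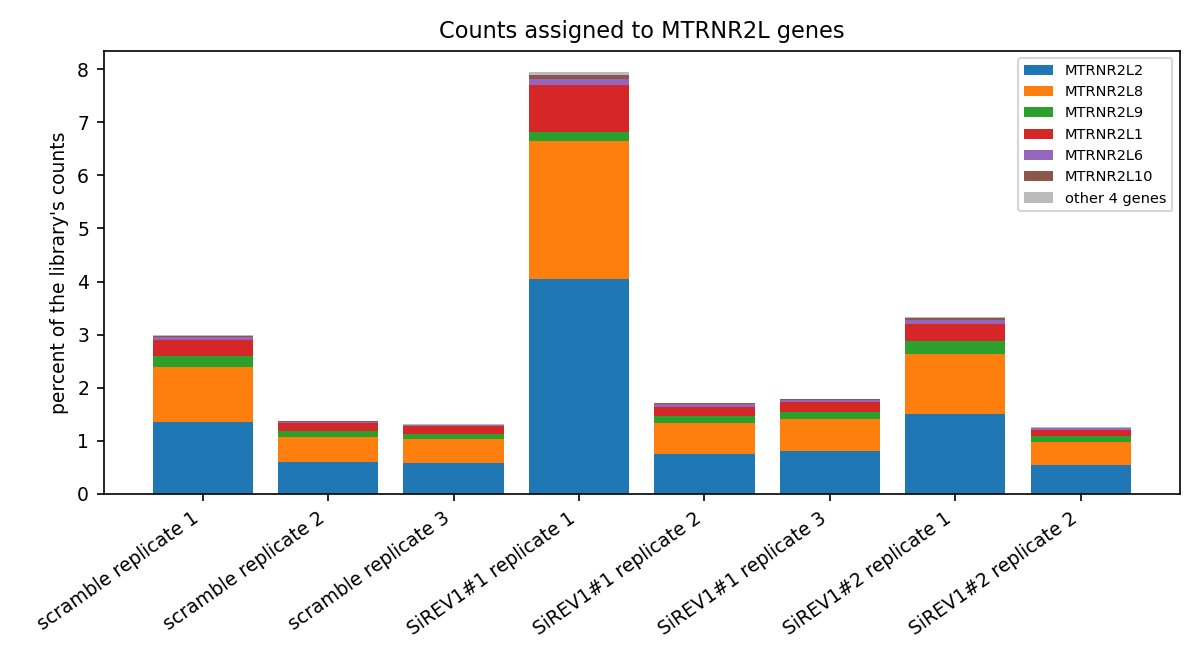
Percent of each library's counts assigned to the MTRNR2L genes, as stacked bars for the 8 libraries with counts of their own. The bar of SiREV1#1 replicate 1 reaches 7.95%, the replicate 1 bars of the other groups 2.99% and 3.33%, and the remaining bars lie between 1.26% and 1.79%.

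Relative to MTRNR2L2, the 7 members with a median above 1 FPKM varied by 1.07-fold to 1.4-fold over 8 libraries, and 5 of them lay outside their own range in SiREV1#1 replicate 1. MTRNR2L9 stood at 31.4 to 38.1% of the FPKM of MTRNR2L2 in those 8 libraries and at 8.82% in SiREV1#1 replicate 1. MTRNR2L4 stood at 0.0540 to 0.0712% of MTRNR2L2 in the 8 libraries and at 0.0126% in that one. MTRNR2L8 and MTRNR2L6 were also lower relative to MTRNR2L2 there, at 51.2% against 59.8 to 64.0% and at 2.27% against 3.17 to 4.36%. MTRNR2L3 was higher, at 1.12% against 0.623 to 0.869%, and MTRNR2L1 and MTRNR2L10 lay inside the range of the other libraries, at 14.2% and 1.58%. The ratios of MTRNR2L5 and MTRNR2L7, which had few counts, varied by 4.01-fold and 7.41-fold over the 8 libraries. In absolute terms 8 members had their highest FPKM in SiREV1#1 replicate 1 and the other 2, MTRNR2L9 and MTRNR2L4, in SiREV1#2 replicate 1.

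Each replicate 1 library was compared with replicates 2 and 3 of its own group, as a difference of log2(FPKM + 0.1) and with no test. MTRNR2L2 was higher in replicate 1 by 1.18 in the scramble group, by 2.39 after SiREV1#1 and by 1.42 after SiREV1#2. More than 2-fold higher in replicate 1 were 7 of 10 members in the scramble group, 7 after SiREV1#1 and 8 after SiREV1#2. The 7 after SiREV1#1 included MTRNR2L7, which had few counts. Over the 11432 genes with a mean of at least 1 FPKM, 9.69% in the scramble group, 9.04% after SiREV1#1 and 12.6% after SiREV1#2 passed that fold. A difference at least as large as that of MTRNR2L2 was found for 7.01% of these genes in the scramble group, 0.770% after SiREV1#1 and 6.74% after SiREV1#2. With log2(FPKM + 1) in its place, 5, 6 and 7 members were more than 2-fold higher, against 7, 6.94 and 9.41% of these genes. MTRNR2L5 and MTRNR2L7 are not among the 11432 genes.

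The members did not move as 1 block. After SiREV1#1 the difference was largest for MTRNR2L3, at 2.88, followed among the members over 1 FPKM by MTRNR2L2 and by MTRNR2L1, at 2.26, MTRNR2L10, at 2.18, and MTRNR2L8, at 2.12. MTRNR2L9 had 0.41 and MTRNR2L4 had 0.01 in that group, although both had between 1.14 and 1.202 in the scramble and SiREV1#2 groups. The summed markers of other cell types were higher in all 3 replicate 1 libraries, as given above, mostly through CD14. PTPRC, another blood marker, was higher in replicate 1 only after SiREV1#1, at 0.47 FPKM against 0.25 and 0.28. The part of these markers in the differences was not tested. What sets replicate 1 apart is not stated in the labels.

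**Figure D3:**
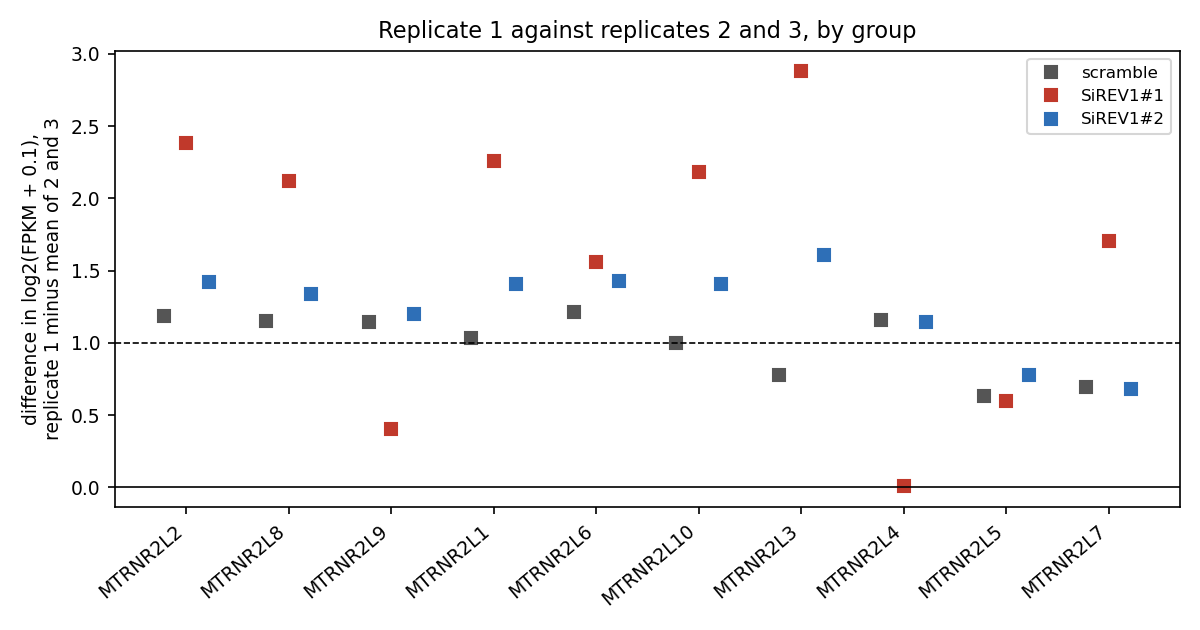
Difference in log2(FPKM + 0.1) between replicate 1 and the mean of replicates 2 and 3 for each member and group, 1 point per group, with the dashed line at 2-fold. All points lie above 0, and for SiREV1#1 (red) MTRNR2L9 at 0.41 and MTRNR2L4 at 0.01 lie apart from MTRNR2L2 at 2.39 and MTRNR2L3 at 2.88.

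The level of MTRNR2L2 was 8367 ± 4314 FPKM in the scramble group, 18301 ± 18530 after SiREV1#1 and 8605 ± 5354 after SiREV1#2 (mean ± SD, n = 3 each). SiREV1#2 and scramble differed by 238 FPKM, less than the spread within either group, in which replicate 1 was the highest library. A two-sided exact permutation test on the 3 and 3 libraries, without regard to the replicate number, gave p = 1, where 0.1 is the smallest p that this design allows. Set against the scramble library of the same number, log2(FPKM + 0.1) was higher by 1.57, 0.29 and 0.45 after SiREV1#1 in replicates 1, 2 and 3. After SiREV1#2 the differences were 0.15, -0.14 and -0.04. MTRNR2L2 was higher than its same-numbered control in 3 of 3 pairs for SiREV1#1 and in 1 of 3 for SiREV1#2. The replicate 1 pair of SiREV1#1 holds the library by which MTRNR2L2 was chosen. In the SiREV1#1 pairs of replicates 2 and 3, 19.2% and 12% of genes with a mean of at least 1 FPKM had a ratio at least as high.

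Within replicate 1, SiREV1#1 over scramble separated the members, from MTRNR2L3 at 2.42, MTRNR2L10 at 1.63, MTRNR2L1 at 1.59 and MTRNR2L8 at 1.33 to MTRNR2L9 at -0.31 and MTRNR2L4 at -0.61, against a median of -0.21 over all genes. In replicates 2 and 3 those same 6 members lay between 0.18 and 0.54. MTRNR2L7 was above its control in 3 of 3 pairs after SiREV1#2, but it had at most 10 counts in any library.

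**Figure D4:**
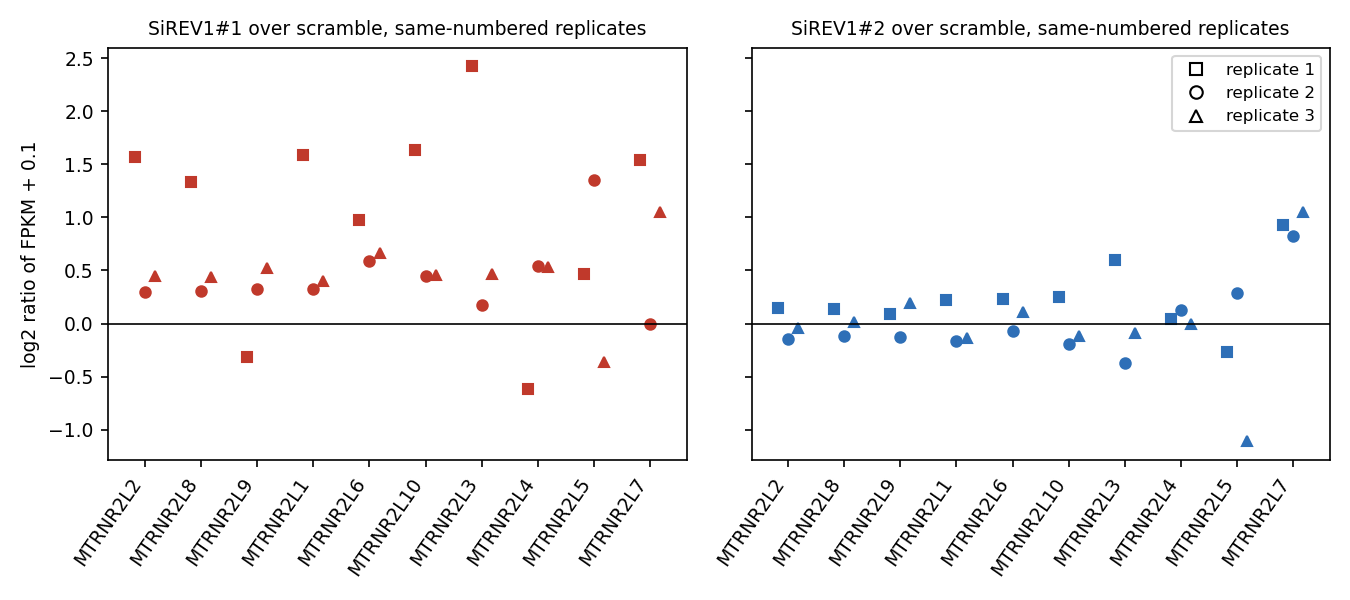
Log2 ratio of FPKM + 0.1 over the same-numbered scramble library for each member, with SiREV1#1 on the left and SiREV1#2 on the right, 1 symbol per replicate. For SiREV1#1 the squares of replicate 1 range from -0.61 to 2.42 while replicates 2 and 3 lie close together for the abundant members, and for SiREV1#2 the abundant members lie around 0.

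With all replicates in the edgeR quasi-likelihood fit, 9 of the 10 members passed the filter on low counts, MTRNR2L7 being the exception. MTRNR2L2 had a log2 fold change of 0.32 ± 0.88 (SE) after SiREV1#2, with an adjusted p of 1 over 14205 genes. With the replicate number as a block its log2 fold change was -0.09 ± 0.33, with an adjusted p of 0.921. None of the 9 members passed after SiREV1#2, in either fit. In that comparison 0% of all genes passed without the block, with 778 genes at an unadjusted p under 0.05 and 216 called by DESeq2 and 66 by limma, and 1.91% passed with the block. The median log2 fold change of the 9 members was 0.33 without and -0.09 with the block, against 0.02 and 0.01 over all genes.

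For SiREV1#1 the same fit gave MTRNR2L2 a log2 fold change of 1.28 ± 0.80 (SE), and without SiREV1#1 replicate 1 the value was -0.12. The 9 members lay between 0.13 and 1.81. With the block, MTRNR2L2 had 0.87 ± 0.28. Over all genes, 0.296% were called without the block and 12.3% with it. The MTRNR2L values contain the library by which MTRNR2L2 was chosen and are a description, with no test.

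Replicates 2 and 3 did not enter the choice of MTRNR2L2, and they were fitted on their own, with 5 libraries and 14181 genes. After SiREV1#1 MTRNR2L2 rose 1.31-fold, from 5979 and 5775 FPKM to 7330 and 7875 FPKM, a log2 fold change of 0.39 ± 0.06 (SE) with an edgeR adjusted p of 1.1e-04. Both SiREV1#1 libraries lay above both scramble libraries. Of the 9 members tested, 8 rose and none fell, where 22.6% of all genes rose and 46.5% changed in either direction. The median log2 fold change of the 9 members was 0.44, against 0.01 over all genes. MTRNR2L6 had the largest rise of the called members, 1.56-fold, from 213 and 183 FPKM to 319 and 291 FPKM, with a log2 fold change of 0.64 ± 0.08 and an edgeR adjusted p of 3.1e-05.

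MTRNR2L8, MTRNR2L1, MTRNR2L9 and MTRNR2L10 rose 1.31-fold, 1.3-fold, 1.36-fold and 1.38-fold. MTRNR2L9 had 2077 and 1865 FPKM in scramble and 2601 and 2683 FPKM after SiREV1#1, so that it rose here although it was only 1.32-fold higher in SiREV1#1 replicate 1 than in replicates 2 and 3. MTRNR2L3 rose by 0.34 ± 0.08 on the log2 scale, with an edgeR adjusted p of 0.0035, and without SiREV1#1 replicate 3 its adjusted p was 0.0764. MTRNR2L4 rose by 0.56 ± 0.15, with an edgeR adjusted p of 0.0091, and it lost the call under DESeq2 and without scramble replicate 2, scramble replicate 3 or SiREV1#1 replicate 2, with adjusted p between 0.0518 and 0.138. MTRNR2L5, with 3 to 12 counts per library, had 0.47 ± 0.62 and did not pass, and MTRNR2L7 was not tested. In the same fit FTL rose by 0.41 ± 0.05 on the log2 scale, with an edgeR adjusted p of 5.8e-05.

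After SiREV1#2 the same fit called none of the 9 members, where 38.4% of all genes changed. MTRNR2L2 had 5423 and 5605 FPKM, a log2 fold change of -0.11 ± 0.07 (SE) with an edgeR adjusted p of 0.229. MTRNR2L3 was nearest to the threshold, at -0.27 ± 0.10 with an edgeR adjusted p of 0.0501. With the replicate block 3 members, MTRNR2L1, MTRNR2L3 and MTRNR2L10, were called lower, with log2 fold changes of -0.15, -0.30 and -0.19 and adjusted p of 0.0423, 0.0267 and 0.0399, where 20.5% of all genes were called lower. The same 3 members were called lower by limma on FPKM, which keeps both SiREV1#2 libraries, with adjusted p of 0.0367, 0.0193 and 0.0347. That limma fit called 3016 of 11274 genes lower. In the edgeR fit MTRNR2L3 had -0.37 without scramble replicate 3 and -0.17 without scramble replicate 2. SiREV1#2 entered this count fit with 1 library, replicate 2, which was assumed to vary like the others.

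A contrast of the 2 siRNAs within the fit of replicates 2 and 3, added after these values were seen, placed MTRNR2L2 1.41-fold higher after SiREV1#1 than after SiREV1#2, at 0.50 ± 0.07 (SE) on the log2 scale with an edgeR adjusted p of 6.3e-05. Of the 9 members 7 were higher after SiREV1#1, where 26.6% of all genes were, and MTRNR2L4 and MTRNR2L5 did not pass. Because the spread between replicates 2 and 3 was small, with a biological coefficient of variation of 0.049 against 0.412 over all replicates, these p-values measure only the spread between so few samples, which may be technical. The study's methods say that its cell experiments were done 3 times independently, while the labels do not say how these libraries relate to separate cultures.

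**Figure D5:**
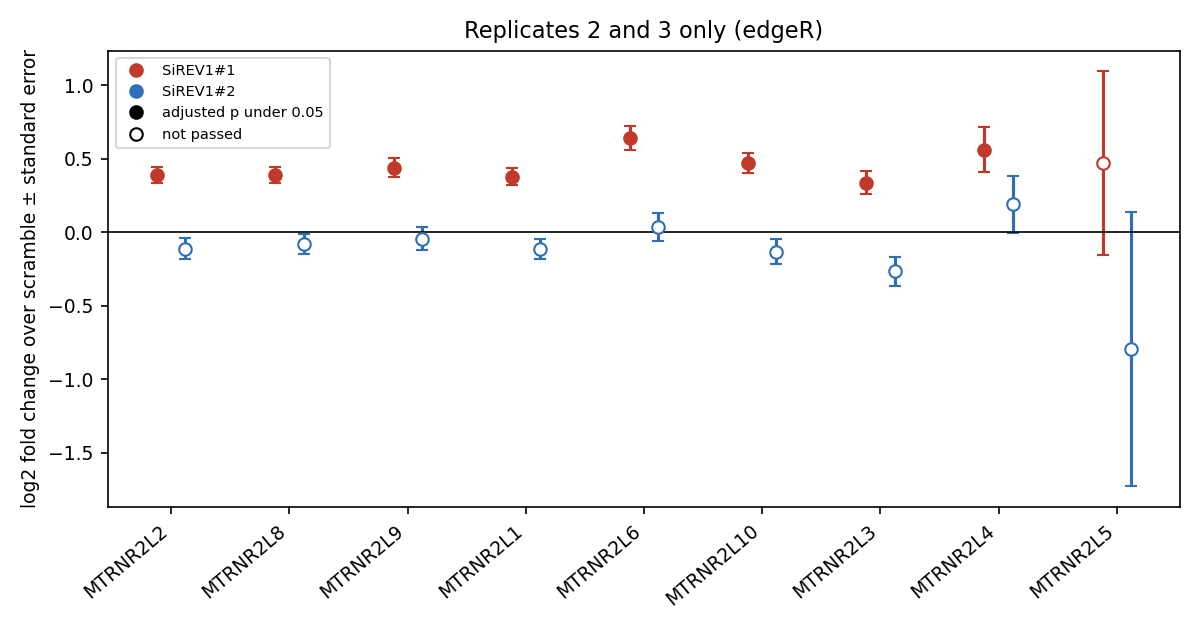
Log2 fold change over scramble with its standard error from the edgeR fit of replicates 2 and 3, for the 9 members tested, SiREV1#1 in red and SiREV1#2 in blue, filled where the adjusted p was under 0.05. The 8 filled points of SiREV1#1 lie between 0.34 and 0.64, and no point of SiREV1#2 is filled.

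The genes whose centred log2(FPKM + 1) followed MTRNR2L2 most closely over the 9 libraries were MTRNR2L1, with a root mean square difference of 0.0665, MTRNR2L8, with 0.0892, and MTRNR2L10, with 0.1004. The next were HSPB1, which encodes the small heat shock protein HSP27, with 0.126, and FOXA1, a pioneer transcription factor of epithelial cells, with 0.127. HSPB1 had 580, 265 and 236 FPKM in the scramble group, 1350, 283 and 278 after SiREV1#1, and 633, 206 and 210 after SiREV1#2. All of these were highest in SiREV1#1 replicate 1, and the libraries are what the points share. MTRNR2L3 and MTRNR2L6 ranked 10th and 14th of 11431 genes in likeness, while MTRNR2L9 and MTRNR2L4 ranked 1065th and 2139th. This order rested on replicate 1. Over the 6 libraries of replicates 2 and 3, an alternative added after the values were seen, MTRNR2L8 ranked 2nd, MTRNR2L1 60th, MTRNR2L3 178th, MTRNR2L9 185th, MTRNR2L10 432nd, MTRNR2L4 756th and MTRNR2L6 1442nd, FOXA1 ranked 230th and HSPB1 703rd, and MAFG, which encodes a small MAF transcription factor and is named after its values were seen, ranked 1st.

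Genes known to work with humanin were read from the same fits. Of 12 such genes 11 were in the tables and 9 passed the filter. The receptor subunit CNTFR had at most 0.09 FPKM in any library. With all replicates none of the 9 was called after either siRNA, and the 2 of highest mean CPM had log2 fold changes of 0.66 and 0.33 for IGFBP3, an IGF-binding protein that also binds humanin, and of 0.10 and 0.18 for APP, the precursor of the amyloid peptide, after SiREV1#1 and SiREV1#2. With the block BCL2L11, which encodes the death-promoting protein BIM, was called after SiREV1#1, at 0.84 with an adjusted p of 0.0286. The medians over the 9 were 0.30 and 0.18 without the block, against 0.002 and 0.02 over all genes.

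In replicates 2 and 3, 5 of the 9 rose and 1 fell after SiREV1#1, where 46.5% of all genes changed. The gene that fell was TRIM11, a ubiquitin ligase that binds humanin, at -0.40 on the log2 scale. IGFBP3 rose by 0.58 ± 0.05 on the log2 scale, from 916 and 883 FPKM to 1334 and 1327 FPKM. BAX, the pore-forming cell death protein that humanin binds, rose by 0.44 ± 0.07, BCL2L11 by 0.56 ± 0.10 and the transcription factor STAT3 by 0.31 ± 0.06, which was lost without SiREV1#1 replicate 3, at an adjusted p of 0.0775. After SiREV1#2, 2 rose and 2 fell, where 38.4% of all genes changed. IGFBP3 rose by 0.83 ± 0.06, and IL6ST, which encodes the shared receptor chain gp130, by 0.66 ± 0.10. BAX fell by 0.50 on the log2 scale, from 208 and 186 FPKM to 139 and 145 FPKM, and TRIM11 fell by 0.67. In replicate 1 IGFBP3 went the other way, at 192 FPKM after SiREV1#2 against 347 FPKM in scramble. IL6ST, BAX and TRIM11 kept their direction there. The median log2 fold changes in replicates 2 and 3 were 0.31 after SiREV1#1 and 0.04 after SiREV1#2, against 0.01 and -0.004 over all genes.

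Of 27 genes that transcribe mitochondrial DNA or process and modify the 16S rRNA, 26 were in the tables and were tested. With all replicates 0 of 26 were called after either siRNA, and the 2 of highest mean CPM had log2 fold changes of 0.02 and -0.04 for LRPPRC, which stabilizes mitochondrial mRNAs, and of -0.85 and -0.04 for TFAM, which packages and transcribes mitochondrial DNA, after SiREV1#1 and SiREV1#2. With the block 3 were called lower after SiREV1#1, among them TFAM, at -0.88 with an adjusted p of 0.0071, and 1, MTERF4, after SiREV1#2, at -0.96 with an adjusted p of 0.0331. MTERF1 and PNPT1 were the other 2 after SiREV1#1, at -1.03 and -0.62. The medians were -0.20 and -0.02 without the block.

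In replicates 2 and 3, 4 of the 26 rose and 11 fell after SiREV1#1, where 46.5% of all genes changed, with a median of -0.14 against 0.01 over all genes. TFAM fell by 0.76 on the log2 scale, from 41.9 and 46.2 FPKM to 25.1 and 24.9 FPKM. MTERF1, which binds the site where transcription can end behind the 16S rRNA gene, fell by 1.02, PNPT1, a mitochondrial RNA-degrading enzyme, by 0.64, and RPUSD4, which modifies the 16S rRNA, by 0.84. After SiREV1#2, 3 rose and 3 fell, where 38.4% of all genes changed, with a median of 0.02. MTERF4, which acts in assembly of the large mitochondrial ribosomal subunit, fell by 1.12, and the RNA helicase gene DHX30 fell by 0.47. FASTKD2, a binder of the 16S rRNA, rose by 0.32 ± 0.09, a call that was lost under DESeq2 and without scramble replicate 2, with adjusted p of 0.0508 and 0.0984. LRPPRC fell by 0.27, a call that was lost without SiREV1#1 replicate 2 or replicate 3. In replicate 1 FASTKD2 and LRPPRC went the other way. After SiREV1#2 against scramble they had 6.58 against 8.53 FPKM and 70.39 against 69.05 FPKM. MTERF4 and DHX30 kept their direction there.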

How the data were processed

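Whole-transcriptome libraries of A549 cells were sequenced on a BGISEQ-500. The submitters' processing notes name StringTie 1.3.3b and hg38 without stating their roles, and the aligner, the annotation and the handling of reads that match several copies are not given in the sources used here. The authors deposited, for each gene and library, an estimated count (42.6% of values are not whole) and FPKM, which is scaled to library size and gene length. The estimated counts were rounded. MTRNR2L rows were taken by symbol, and the members and lists were chosen with earlier results of these data known. 1 count column was a copy and was left out.

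Counts were filtered by filterByExpr, normalized by TMM and tested with the quasi-likelihood test of edgeR 4.0.16 in R 4.3.3 with Benjamini-Hochberg adjustment over all genes and a threshold of 0.05, once over 8 libraries and once over the 5 libraries of replicates 2 and 3. Alternatives were DESeq2 1.42.0, limma 3.58.1 on log2(FPKM + 1), total counts, no filter, TMM without the MTRNR2L rows, a replicate block and leaving out each library. The fit functions were also run on simulated counts with known fold changes. These had the same spread for every gene and no replicate 1 difference, so the run does not cover those features of the data. FPKM ratios used a pseudocount of 0.1. The exact permutation test used scipy 1.17.1. Deviations of same-numbered samples from their group means correlated at 0.734 to 0.929 in 9 of 9 pairs of groups and numbers. The numbers were used for same-numbered ratios and as a block in alternative fits. The main fits and the permutation test did not use them. Other-numbered pairs ranged from -0.924 to 0.914. The difference of replicates 2 and 3 correlated at only -0.218 to 0.175 between groups, so that the shared deviation was that of replicate 1. Transcripts of GENCODE 29 were aligned to MT-RNR2, and 50-base words were matched exactly.

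Named genes were all MTRNR2L rows, REV1, the 3 genes of highest FPKM in each library, the 5 genes closest to MTRNR2L2, and in each list up to 4 called members with the smallest p or, with none called, the 2 of highest mean CPM (counts scaled to library size). Depth was 13059082 to 20166451 counts per library. Genes encoded by mitochondrial DNA were not analysed, since none of the 38 symbols searched had a row. Columns of the tables other than count and FPKM were not used.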

Additional observations from a re-analysis of the deposited data

How the results depend on the processing

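The rise of MTRNR2L2 after SiREV1#1 in replicates 2 and 3 kept its direction and its call under each of the 10 alternatives run, between 0.35 and 0.43 on the log2 scale, with adjusted p of 1.2e-09 to 0.0421. Values over all replicates changed direction. For MTRNR2L2 after SiREV1#2 the log2 fold change was -0.094 with the replicate block and -0.012 with limma, with and without the block, and it ran from -0.61, without SiREV1#2 replicate 1, to 0.88 when a library was left out. After SiREV1#1 it ran from -0.12, without SiREV1#1 replicate 1, to 1.79. The FPKM difference between SiREV1#2 and scramble ran from -2852, without SiREV1#2 replicate 1, to 2728, without scramble replicate 1, when a library was left out, and it was 275 with FPKM rescaled to a total without the MTRNR2L genes. The number of genes changed after SiREV1#1 was 42 and became 1744 with the replicate block, 569 with DESeq2, 156 with limma and 2251 with limma and the block, and 0 to 35 without a library. After SiREV1#2 it was 0 and became 271, 216, 66 and 1291, and stayed 0 without a library. In replicates 2 and 3 it was 6597 and 5450 for the 2 siRNAs. DESeq2 gave 3534 for SiREV1#2, and leaving out a library gave 4032 to 6686 and 3353 to 4867. Directions of values that passed no test also changed. In replicates 2 and 3 after SiREV1#2, MTRNR2L6 had -0.053 with the block and MTRNR2L9 had 0.0355 with limma, and over all replicates after SiREV1#1 LRPPRC had -0.052 on total counts and with limma, with and without the block, while TFAM after SiREV1#2 had 0.046 with the block and 0.094 with limma, with and without it. Leaving out a library from replicates 2 and 3 gave -0.17 to 1.66 for MTRNR2L5 after SiREV1#1, and after SiREV1#2 -1.44 to 0.39 for MTRNR2L5, -0.071 to 0.14 for MTRNR2L6 and -0.12 to 0.029 for MTRNR2L9. Over all replicates it gave -0.10 to 0.27 for APP and -0.022 to 0.078 for LRPPRC after SiREV1#1, and -1.85 to 1.16 for IGFBP3, -0.12 to 0.43 for APP, -0.40 to 0.26 for TFAM and -0.32 to 0.19 for LRPPRC after SiREV1#2. REV1 over all replicates lost its call after SiREV1#1 without a filter and without each library in turn, and gained it after SiREV1#2 with the block, DESeq2 and limma. The cause was not tested for any of these. The block changed no other call of REV1 or a list gene named in the report. Nor did it change another call of an MTRNR2L gene in the comparisons where these genes were tested. For SiREV1#2 against scramble, a run leaving out SiREV1#2 replicate 2 from replicates 2 and 3 was not possible with counts, since no SiREV1#2 library would remain. The low counts of MTRNR2L5 and MTRNR2L7 limit any statement on them, and the standard errors do not cover how reads were divided between copies.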
